A study of Mus musculus with 17 samples.

Results

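The genes described here are 10 components of cytokine signalling through the JAK and STAT pathway in mouse skin innate lymphoid cells (ILCs): Socs1, Socs2, Socs3, Cish, Stat3, Stat4, Stat5a, Stat5b, Stat6 and Pim1. They were chosen by name, with earlier results of these data known. All 10 were found among 54446 gene models in the bulk files and in each of the 3 single-cell libraries. All 10 also passed the filter on low counts in both bulk experiments. ILCs are tissue lymphocytes without rearranged antigen receptors, and the study sorted live cells from C57BL/6 skin that lacked lineage markers and the γδ T cell receptor and carried CD90.

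In this pathway a cytokine binds its receptor, receptor-bound JAK kinases phosphorylate STAT proteins, and the STATs move to the nucleus and switch on target genes. Among those targets are genes for the pathway's own inhibitors, the suppressors of cytokine signalling (SOCS proteins and CISH), and for the serine/threonine kinase PIM1. In ILCs, STAT5 is known for carrying survival signals from IL-7 and IL-2, STAT6 for IL-4 and IL-13, STAT4 for IL-12, and STAT3 for IL-23, IL-10 and the IL-6 family.

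The genes are spread over 6 chromosomes of mm10 (coordinates as in the fate-map files). The STATs are Stat3 at chr11:100885098-100939540, Stat5a at chr11:100859351-100885169, Stat5b at chr11:100780731-100850724, Stat4 at chr1:51987148-52107189 and Stat6 at chr10:127642986-127660957, of which Stat3 and Stat5b are on the minus strand. The inhibitors are Socs1 at chr16:10782240-10785536, Socs2 at chr10:95385362-95417180 and Socs3 at chr11:117966079-117970047, all on the minus strand, and Cish at chr9:107296026-107302784 on the plus strand. Pim1 is at chr17:29490812-29496111 on the plus strand. The files give the position of each gene's exons, and its length as that of the merged exons.

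The first bulk experiment had 10 libraries, all from mice carrying a fate-map (fm) reporter, which marks a cell and its descendants lastingly once its driving gene has been active. Marked cells from mice that also carried a floxed Gata3 allele formed the group fm_pos_Gata3flox (n = 3), and those from mice with intact Gata3 formed fm_pos (n = 2). The reporter-negative cells were fm_neg_Gata3flox (n = 3) and fm_neg (n = 2). The second bulk experiment compared mice with floxed Gata3 and the tamoxifen-inducible CreERT2 (Gata3KO_tamoxifen, n = 2) with wild-type C57BL/6 mice (WT_tamoxifen, n = 2), and both groups received 3 intraperitoneal injections of 5 mg tamoxifen in corn oil. GATA3 is a transcription factor needed for ILC development. Of the single-cell libraries, 1 came from skin and the others from dorsal skin 10 days after depilation and at day 0, with 1 library each. The labels give neither the age of the mice nor whether replicate libraries came from separate animals, so p-values measure the spread between these libraries, which may be technical.

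Total counts ran from 14450612 to 44098274 per bulk library. The fm_pos and fm_neg libraries had 14525 to 15410 genes with a count, against 17730 to 18974 in the Gata3flox fate-map libraries. This split follows genotype, and its part in the differences between genotypes given below was not tested. As a check of the labels, Gata3 stood at 154, 235 and 307 CPM (counts scaled to the size of the library, with TMM factors) in fm_pos_Gata3flox, against 164 and 303 CPM in fm_pos. It stood at 264, 430.3 and 442 CPM in fm_neg_Gata3flox, against 380.5 and 504 CPM in fm_neg, and at 299 and 314 CPM in Gata3KO_tamoxifen, against 381 and 581 CPM in WT_tamoxifen. The fate-map groups overlapped, so whole-gene counts did not show the allele there, and such counts cannot show the loss of single exons. The fm_neg libraries stood apart in what else they held: the summed CPM of 7 fibroblast markers was 6068 and 8522, against 71.6 to 1073 in the other 8 fate-map libraries, and that of 8 keratinocyte markers was 2544 and 4716, against 384 to 684. Their 12 immediate early and stress genes summed to 18880 and 23510 CPM, against 8225 to 16520 CPM in the other 8 libraries. The T cell list of 8 genes, which ILCs express in part, summed to 1244 to 2260 CPM in all bulk libraries. In bulk RNA, fewer cells of a type and less RNA per cell cannot be told apart.

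Per kilobase of exon, Socs1 and Cish were the highest of the 10 genes in every fate-map group and Stat5a and Stat5b the lowest. Socs1 averaged 148 ± 11.7 RPKM in fm_pos_Gata3flox (SD, n = 3), and Cish averaged 69.6 ± 21.0 RPKM there. Stat3 came next in all fate-map groups, with means of 44.5 to 61.5 RPKM, while Stat5a and Stat5b had means of 3.66 to 5.59 RPKM. In the middle, the order changed with the group: Socs2 was the sixth in fm_neg_Gata3flox, where its mean of 29.1 RPKM was within an SD of Pim1 at 29.3, and the eighth in fm_pos_Gata3flox, at 13.3 ± 0.84 RPKM, where it was within an SD of Socs3. Socs3 was the fourth in fm_neg, at 45.6 ± 6.80 RPKM, and no higher than the seventh in the other fate-map groups. Over the 10 fate-map libraries Socs3 varied the most, by 8.85 times between its lowest and its highest CPM, and Pim1 the least, by 1.42 times.

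**Figure D1:**
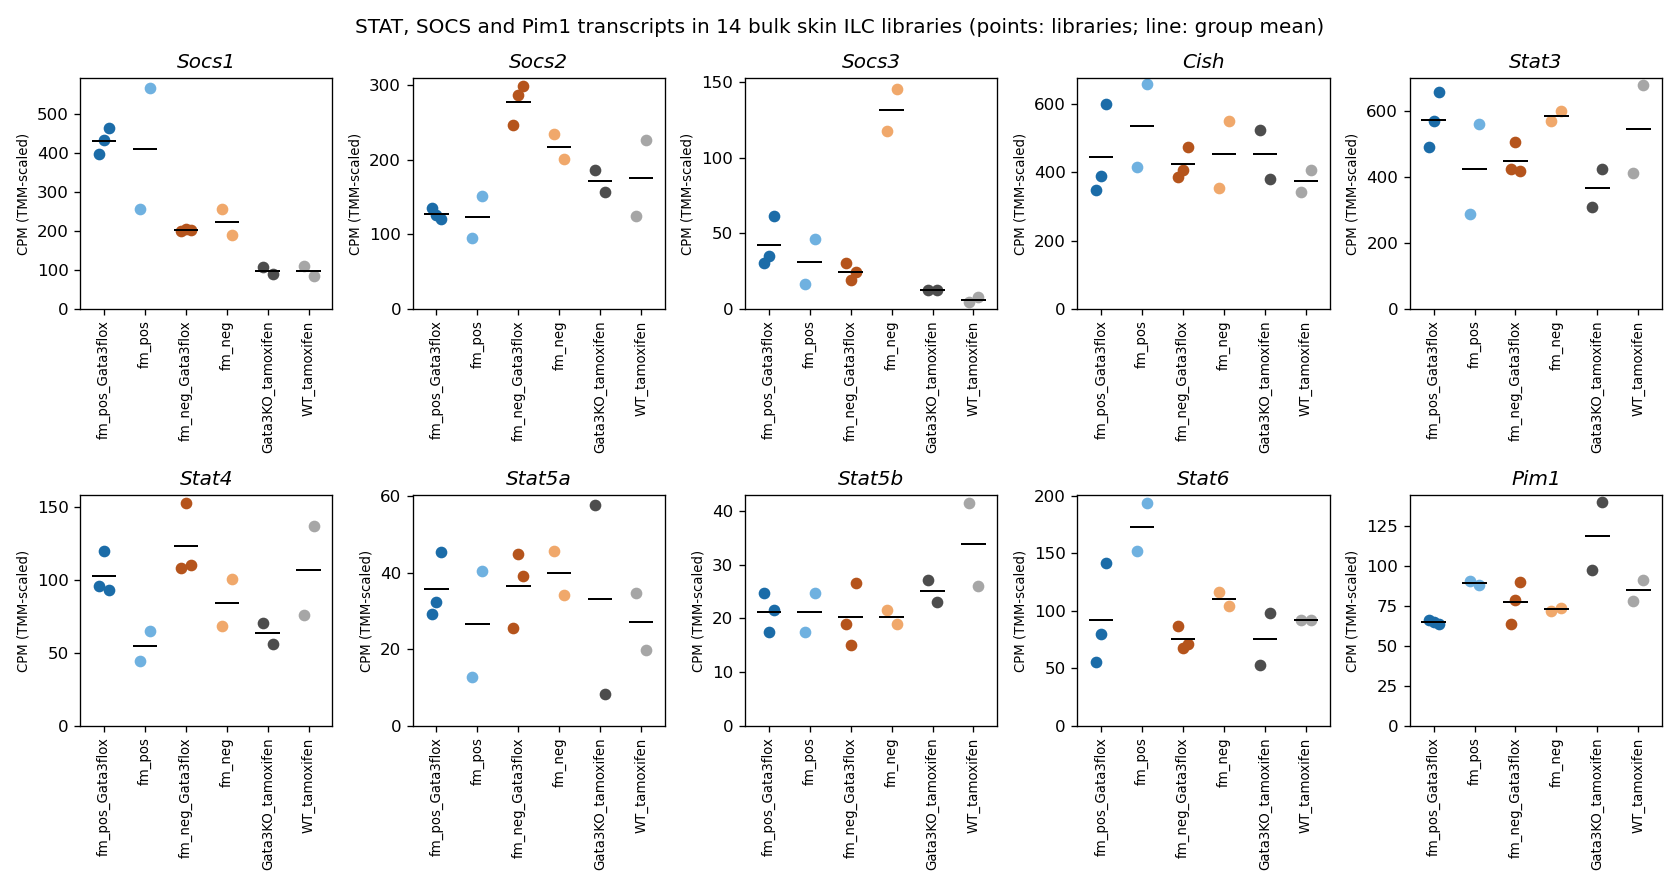
CPM of each of the 10 genes in each of the 14 bulk libraries, by group (points: libraries; lines: group means; the y axes start at 0 and differ between genes). Socs2 is lower and Socs1 mostly higher in reporter-positive than in reporter-negative fate-map libraries, Socs3 is high in both fm_neg libraries, and the tamoxifen libraries were scaled separately from the fate-map libraries.

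Socs2, an inhibitor known for restraining growth hormone signalling through STAT5, was lower in reporter-positive cells in both genotypes. It stood at 136, 126 and 119.7 CPM in fm_pos_Gata3flox, against 247, 287 and 299 CPM in fm_neg_Gata3flox. In intact mice it stood at 94.7 and 151 CPM in fm_pos, against 200.1 and 234 CPM in fm_neg. All 5 reporter-positive libraries were below all 5 reporter-negative libraries. The log2 fold change, reporter-positive over reporter-negative, was -1.13 ± 0.19 (SE) in Gata3flox mice (adjusted p = 0.0443, quasi-likelihood test in edgeR, with p adjusted by Benjamini-Hochberg over 17456 genes) and -0.82 ± 0.23 in intact mice (adjusted p = 0.0996). With the fm_neg libraries left out, both reporter-positive groups were set against fm_neg_Gata3flox alone, which mixes genotype into the reporter difference. The log2 fold change was then -1.16 ± 0.17 (adjusted p = 0.0167, edgeR). Averaged over both genotypes it was -0.97 ± 0.15 (adjusted p = 0.00873, edgeR). That call held without any 1 of the 10 libraries. In Gata3flox mice alone it was lost without any 1 of the 6 libraries (-1.07 to -1.20, adjusted p from 0.125 to 0.231), and in intact mice Socs2 was called without fm_pos replicate 2, the higher of its group (-1.19 ± 0.23, adjusted p = 0.0225). The difference between the genotypes' fold changes was -0.31 ± 0.30 with an adjusted p of 0.738. Its approximate 95% interval, from the SE and too narrow for so few libraries, ran from -0.89 to 0.27.

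Socs1, which binds and inhibits JAK kinases and restrains interferon-γ signalling in particular, ran the other way. It stood at 396, 432 and 465 CPM in fm_pos_Gata3flox, against 200.3, 203 and 203 CPM in fm_neg_Gata3flox. In intact mice it stood at 255 and 567 CPM in fm_pos, against 190.5 and 256 CPM in fm_neg. The groups did not overlap in Gata3flox mice, whereas in intact mice fm_pos replicate 1 lay at the level of the higher fm_neg library. Socs1 rose in reporter-positive cells over both genotypes, with a mean log2 fold change of 0.99 ± 0.20 (adjusted p = 0.0292, edgeR). Neither genotype passed alone: the log2 fold change was 1.09 ± 0.26 in Gata3flox mice (adjusted p = 0.154) and 0.88 ± 0.31 in intact mice (adjusted p = 0.169). The call over both genotypes depended on single libraries. It was lost without fm_neg replicate 2 (adjusted p = 0.0748) and without any 1 of the 6 Gata3flox libraries (adjusted p from 0.0531 to 0.0778). In intact mice it was called without fm_pos replicate 1, the lower of its group (1.35 ± 0.21, adjusted p = 0.012). Without both fm_neg libraries, the reporter-positive groups were set against fm_neg_Gata3flox alone, which mixes genotype into the reporter difference. The log2 fold change of Socs1 was then 1.05 ± 0.24 with an adjusted p of 0.0556.

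Socs1 and Socs2 were the 2 of the 10 genes called over both genotypes, where 3.35% of all genes tested were called (0.894% higher and 2.46% lower). In Gata3flox mice alone 1 of 10 was called, Socs2, against 0.361% of all genes (0.235% lower). In intact mice 0 of 10 were called by edgeR, against 2.74% of all genes, with 3 of 10 at an unadjusted p under 0.05 (19.8% of all genes). DESeq2 called 2 of 10 there, Socs2 and Socs3, and 2208 of all 17456 genes. Groups did not overlap for 2 of 10 genes in Gata3flox mice (18.2% of all genes), for 6 of 10 in intact mice (35.0%) and for 1 of 10, Socs2, over all 10 libraries (2.56%). Lists of ILC markers moved with the reporter too. The 8 ILC3 markers summed to 1444 to 2112 CPM in fm_pos_Gata3flox, against 387 to 558 CPM in fm_neg_Gata3flox, and to 1246 and 1909 CPM in fm_pos, against 524 and 663 CPM in fm_neg. The 8 ILC2 markers summed to 733 to 895 CPM in fm_pos_Gata3flox, against 1027 to 1334 CPM in fm_neg_Gata3flox, and to 662 and 757 CPM in fm_pos, against 1110.0 and 1145 CPM in fm_neg. The part of these cell types in the Socs1 and Socs2 differences was not tested. The median log2 fold change of the 10 genes over both genotypes was -0.02, against -0.03 for all genes tested.

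The sequencing lane, read from a code in the deposited files' names, was shared unevenly: all 5 reporter-positive libraries came from lane 2, and 3 of the 5 reporter-negative libraries came from lane 1. Within lane 2, Socs2 stood at 119.7 to 136 CPM in fm_pos_Gata3flox, against 287 CPM in the single fm_neg_Gata3flox library there, and Socs1 at 396 to 465 CPM against 203 CPM. In intact mice, Socs2 stood at 94.7 and 151 CPM in fm_pos, against 234 CPM in the single fm_neg library of lane 2. Socs1 stood at 255 and 567 CPM in fm_pos, against 256 CPM in that fm_neg library, so its lower fm_pos library was not above fm_neg there. With lane as a covariate Socs2 remained called over both genotypes (-1.05 ± 0.19, adjusted p = 0.0475, edgeR) but not in Gata3flox mice alone (-1.22 ± 0.24, adjusted p = 0.206), and Socs1 was no longer called (0.88 ± 0.28, adjusted p = 0.23).

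**Figure D2:**
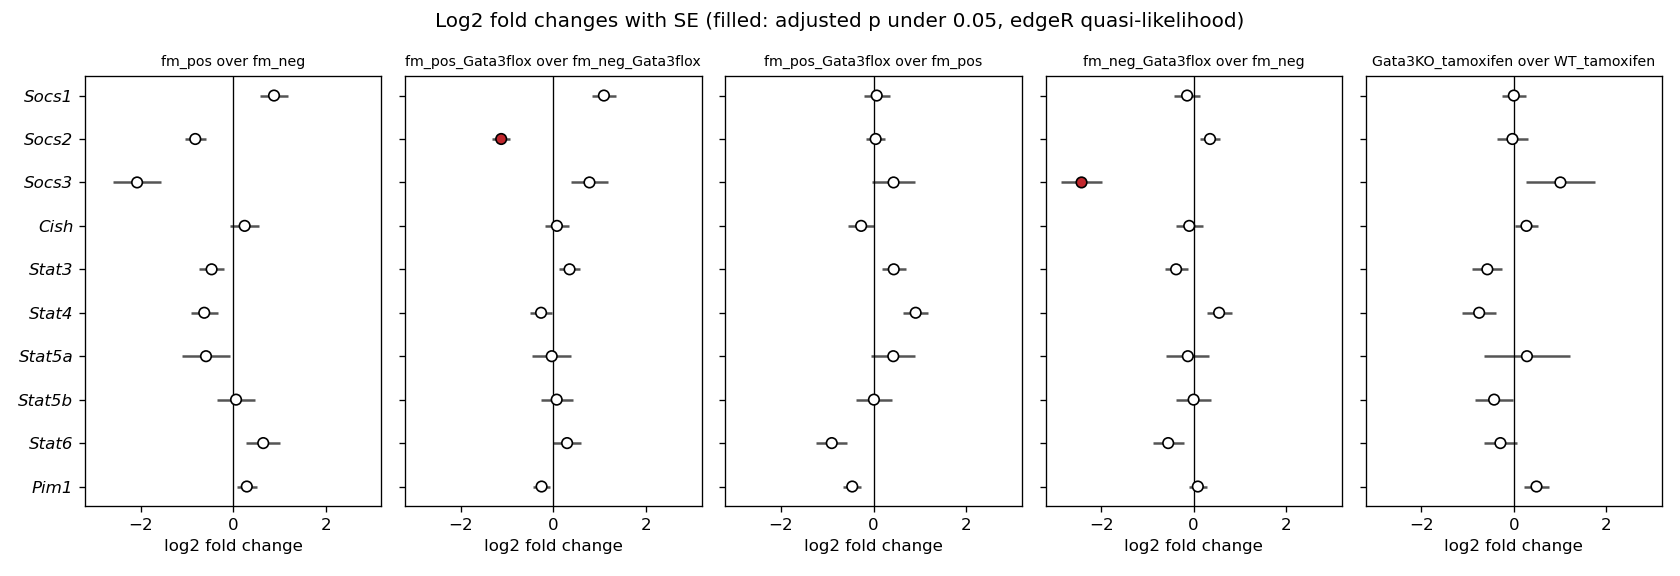
Log2 fold changes (points) with SE (bars) of the 10 genes in 5 comparisons, positive where the first-named group was higher; filled points have an adjusted p under 0.05 by edgeR. Only Socs2 in Gata3flox mice, at -1.13, and Socs3 in reporter-negative cells, at -2.42, are filled; the average over both genotypes is not drawn.

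Socs3, which binds receptors of the IL-6 family and blocks their signal to STAT3, was set apart by the fm_neg libraries. It stood at 30.6, 19.1 and 24.1 CPM in fm_neg_Gata3flox, against 118 and 146 CPM in fm_neg. Among reporter-positive cells it stood at 30, 34.8 and 61.7 CPM in fm_pos_Gata3flox, against 16.5 and 46.0 CPM in fm_pos. Both fm_neg libraries were above all 8 other fate-map libraries, which overlapped one another. Socs3 fell in fm_neg_Gata3flox, with a log2 fold change of -2.42 ± 0.45 over fm_neg (adjusted p = 0.0417, edgeR). It was the 1 of 10 genes called there, against 1.33% of all genes (0.739% lower), and 5 of 10 genes had groups that did not overlap, against 39.5% of all genes. In reporter-positive cells the same log2 fold change was 0.43 ± 0.46 (adjusted p = 0.652).

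Between reporter-positive and reporter-negative cells of intact mice, the log2 fold change of Socs3 was -2.08 ± 0.51 (adjusted p = 0.0662, edgeR). In Gata3flox mice it was 0.78 ± 0.41 (adjusted p = 0.723). The difference between the genotypes was 2.86 ± 0.65 with an adjusted p of 0.0797 (edgeR). For this difference 0 of the 10 genes were called by edgeR, against 1.01% of all genes, with 2 of 10 at an unadjusted p under 0.05 (14.8% of all genes). DESeq2 called 1 of 10 for it, Socs3, and 1158 of all 17456 genes. The call in reporter-negative cells was lost when any 1 of the 5 libraries was left out, with adjusted p from 0.0734 to 0.161 and log2 fold changes of -2.61 to -2.26, and with lane as a covariate (-2.51 ± 0.47, adjusted p = 0.062). Without fm_pos replicate 2, Socs3 was called in intact mice (-2.99 ± 0.54, adjusted p = 0.0175) and for the difference between genotypes (3.77 ± 0.62, adjusted p = 0.0167). The fm_neg libraries that were high in Socs3 were those with the high fibroblast, keratinocyte and immediate early sums, and the part of these transcripts in the Socs3 difference was not tested. Among fate-map libraries, no fibroblast marker of the 7 was at 0 in fm_neg, while up to 3 were at 0 in fm_pos libraries.

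**Figure D3:**
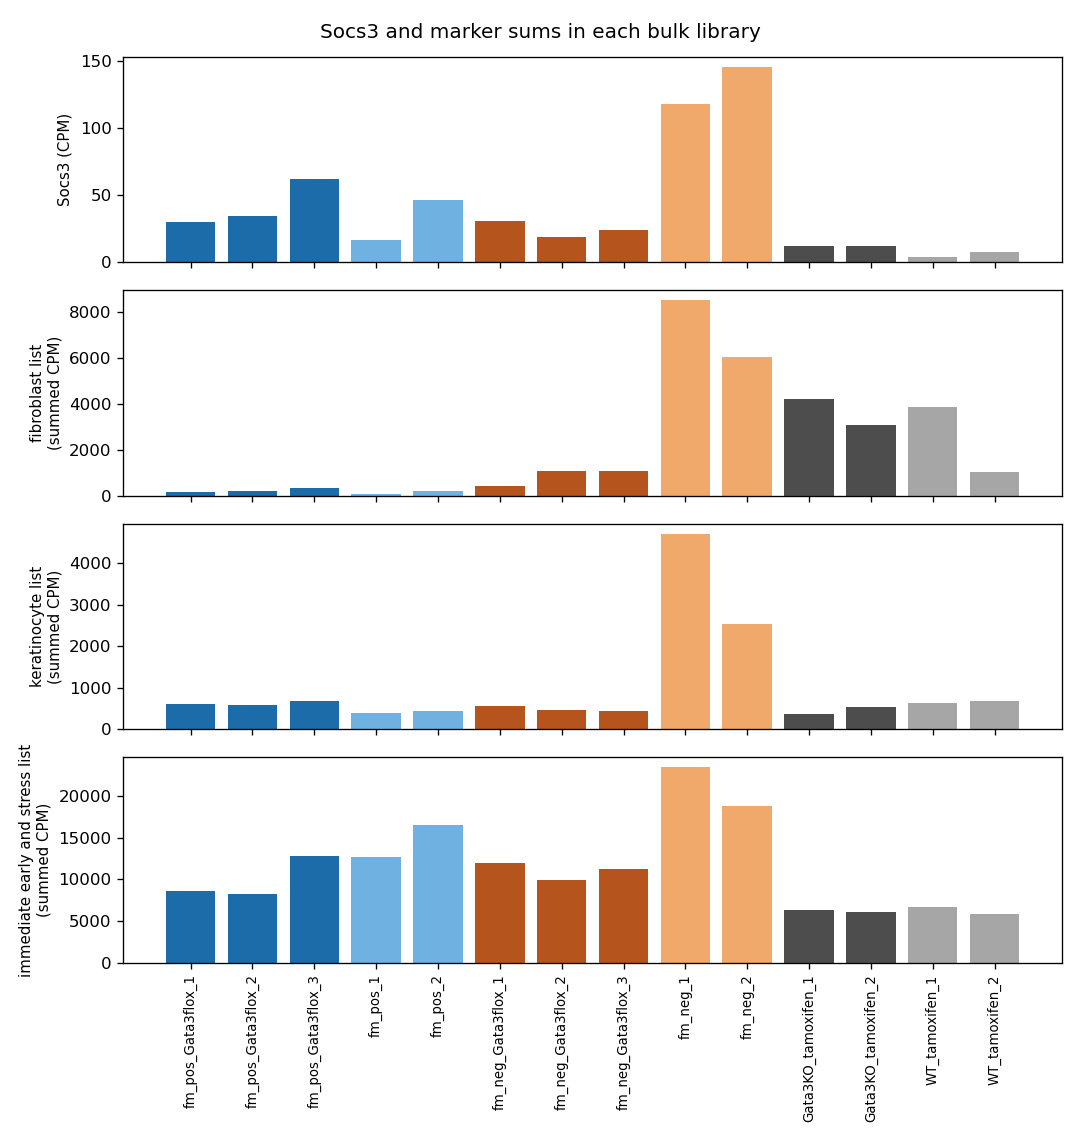
CPM of Socs3 (top) and summed CPM of the fibroblast, keratinocyte and immediate early lists in each bulk library, with bars from 0. The fm_neg libraries have the highest bar in all 4 panels. The tamoxifen libraries were scaled separately for Socs3.

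The promoters of these inhibitors differ in the motifs that the pathway's transcription factors recognise. STAT dimers bind palindromes written TTCNNNGAA or TTCNNNNGAA, and interferon regulatory factors bind repeats such as GAAANNGAAA. RefSeq promoter windows of 300 bases (250 before to 50 after a start, GRCm38.p6, the assembly of mm10) were available for 9 of the 10 genes, as 13 windows; Socs2 was not among them. On either strand, 8.3% of all 32851 mouse windows held TTCNNNGAA, 6.95% held TTCNNNNGAA and 3.44% held GAAANNGAAA. Cish held 2 TTCNNNGAA matches, the first beginning at base 1 of the transcript and the other at base 12, and Socs3 held 1 at 154 bases before its start. Socs1 held 2 GAAANNGAAA matches that overlap each other, and 1 of the Stat4 windows held 1. No TTCNNNNGAA match was found in the 13 windows. A match is a run of letters and not a measured site. The RefSeq starts of Cish and Socs3 lie inside the gene models given above, while that of Socs1 is at the edge of its model. The stretches are shown because Socs1 and Socs3 are members that were called above and Cish holds both of its matches within 30 bases. Capitals mark the matches, 5′ to 3′ on the gene's strand. They lie at chr9:107296649-107296678 (plus strand) for Cish, around its start, and at chr11:117969367-117969616 (minus strand) for Socs3 and chr16:10785537-10785786 (minus strand) for Socs1, the 250 bases before their starts.
Cish: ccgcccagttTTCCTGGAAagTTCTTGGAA
Socs3: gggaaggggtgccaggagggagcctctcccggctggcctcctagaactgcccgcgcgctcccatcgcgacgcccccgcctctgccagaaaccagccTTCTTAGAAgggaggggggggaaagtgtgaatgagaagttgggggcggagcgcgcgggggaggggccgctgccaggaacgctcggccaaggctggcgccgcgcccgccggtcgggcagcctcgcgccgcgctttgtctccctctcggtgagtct
Socs1: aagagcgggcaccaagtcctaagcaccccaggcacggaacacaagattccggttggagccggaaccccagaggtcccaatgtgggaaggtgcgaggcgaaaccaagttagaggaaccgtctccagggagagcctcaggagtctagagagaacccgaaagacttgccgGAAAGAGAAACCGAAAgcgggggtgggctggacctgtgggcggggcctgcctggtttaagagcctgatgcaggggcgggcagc

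Cish, a STAT5 target whose product binds cytokine receptors and dampens their signal, was not called in any comparison. It stood at 350, 390 and 601 CPM in fm_pos_Gata3flox and 414.8 and 660 CPM in fm_pos, against 387, 407 and 475 CPM in fm_neg_Gata3flox and 356 and 549 CPM in fm_neg. All groups overlapped, and its reporter fold change over both genotypes was 0.16 ± 0.20 on the log2 scale. The approximate 95% interval, too narrow for so few libraries, was -0.24 to 0.56. Pim1, a kinase induced by cytokines that promotes survival, stood at 63.7 to 66.3 CPM in fm_pos_Gata3flox, against 87.9 and 90.4 CPM in fm_pos. These libraries did not overlap, but the log2 fold change of -0.46 ± 0.19 did not pass (adjusted p = 0.241, edgeR). In reporter-negative cells Pim1 stood at 63.8 to 89.7 CPM in fm_neg_Gata3flox, against 71.7 and 73.7 CPM in fm_neg.

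With all libraries in the fit, none of the 5 STAT genes was called in any of the 7 comparisons by edgeR. The nearest was Stat4, the transducer of IL-12, among reporter-positive cells: 95.8, 119.5 and 92.8 CPM in fm_pos_Gata3flox, against 44.4 and 64.9 CPM in fm_pos. The groups did not overlap, and the log2 fold change was 0.91 ± 0.27 (adjusted p = 0.125, edgeR, and 0.0302 by DESeq2). In reporter-negative cells Stat4 stood at 108, 152 and 110.0 CPM in fm_neg_Gata3flox, against 68.5 and 100.2 CPM in fm_neg, a log2 fold change of 0.55 ± 0.27 (adjusted p = 0.308). Stat6, the transducer of IL-4 and IL-13, stood at 55.2, 80.2 and 142 CPM in fm_pos_Gata3flox, against 152 and 194 CPM in fm_pos. Its log2 fold change was -0.90 ± 0.33 (adjusted p = 0.196, edgeR), and without fm_pos_Gata3flox replicate 3, the highest of its group, it was -1.37 ± 0.25 with an adjusted p of 0.0431. Among reporter-positive cells 0 of the 10 genes were called by edgeR, against 1.52% of all genes, with 3 of 10 at an unadjusted p under 0.05 (19.1% of all genes). DESeq2 called 1 of 10 there, Stat4, and 1898 of all 17456 genes. The median log2 fold change of all genes in that comparison was 0.18, and groups did not overlap for 3 of 10 genes, against 33.0% of all genes.

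Stat3 ranged from 288 to 659 CPM over the fate-map libraries. It stood at 492, 572 and 659 CPM in fm_pos_Gata3flox, against 426, 507 and 419 CPM in fm_neg_Gata3flox, and at 288 and 561 CPM in fm_pos, against 571 and 601 CPM in fm_neg. The log2 fold change was 0.35 ± 0.23 in Gata3flox mice and -0.47 ± 0.28 in intact mice, and their difference of 0.82 ± 0.36 had an adjusted p of 0.325 (edgeR). Without fm_pos replicate 2, the higher of its group, Stat3 was called in intact mice (-1.02 ± 0.23, adjusted p = 0.0387) and for the difference (1.37 ± 0.27, adjusted p = 0.0332). Stat5a stood between 12.7 and 45.6 CPM and Stat5b between 15.1 and 26.7 CPM over these libraries, with reporter fold changes over both genotypes of -0.31 ± 0.33 and 0.07 ± 0.27 on the log2 scale. Stat5a and Stat5b are near-identical in much of their coding sequence, and the gene models of Stat3 and Stat5a overlap by 72 bases on opposite strands, so reads in those parts may have been split between them.

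By tamoxifen-induced deletion of Gata3, 0 of the 10 genes were called, and 0 of 13272 genes tested (0.0%), with 0 of the 10 genes and 915 genes (6.89%) at an unadjusted p under 0.05 by edgeR. DESeq2 called 196 genes and 0 of the 10. Socs1 stood at 106 and 88.7 CPM in Gata3KO_tamoxifen, against 111 and 84.1 CPM in WT_tamoxifen, a log2 fold change of 0.00 with an approximate 95% interval of -0.51 to 0.51. Socs2 stood at 187 and 156 CPM in Gata3KO_tamoxifen, against 124 and 226 CPM in WT_tamoxifen, with an approximate interval of -0.70 to 0.64 around a log2 fold change of -0.03. These intervals are normal approximations from the SE, and they are too narrow for so few libraries. Groups did not overlap for 3 of the 10 genes, against 36.1% of all genes. These were Socs3, at 12.2 and 12.1 CPM in Gata3KO_tamoxifen against 4.25 and 7.81 CPM in WT_tamoxifen, Stat4, at 70.7 and 55.9 CPM against 75.8 and 137 CPM, and Pim1, at 97.2 and 140.1 CPM against 77.8 and 91.3 CPM. Stat5a differed most between replicates, at 57.8 and 8.38 CPM in Gata3KO_tamoxifen, against 34.8 and 19.7 CPM in WT_tamoxifen. All 4 tamoxifen libraries had less Socs1 and Socs3 CPM than any fate-map library, but these experiments were scaled separately and that difference was not tested.

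Around the 10 genes, the pathway was read from lists of its other parts. These lists too were chosen with earlier results of these data known, so their shares beside those of all genes are descriptive. Their genes were not followed in the alternative runs, so no call below was checked with a lane term, a replicate block or left-out libraries. With lane as a covariate, 170 of all genes were called over both genotypes, against 585 without it. Of 17 cytokines that act through JAK and STAT, 15 were tested; over both genotypes 5 fell and 0 rose in reporter-positive cells, where 3.35% of all genes were called and 2.46% fell. The list's median log2 fold change was -1.97, against -0.03 for all genes, and it was also -1.97 with the 4 cytokines at 0 in a whole group (Il7, Il22, Il23a and Tslp) set at a floor of 3 counts over the group. Il6, which was not called, stood at 0.065 to 15.99 CPM in the 5 reporter-positive libraries, against 9.51 to 24.4 CPM in fm_neg_Gata3flox and 53.9 and 329.7 CPM in fm_neg, the libraries with the most fibroblast transcripts, whose part was not tested. Il4, which signals through STAT6, stood at 9.0, 10.2 and 10.5 CPM in fm_pos_Gata3flox and 6.95 and 4.84 CPM in fm_pos, against 73.2, 89.5 and 126 CPM in fm_neg_Gata3flox and 77.7 and 42.9 CPM in fm_neg. Its log2 fold change was -3.32 ± 0.26 (adjusted p = 0.000389, edgeR). Csf2, which encodes GM-CSF and signals through STAT5, fell by 3.69 on the log2 scale (SE 0.35, adjusted p = 0.000934, edgeR). Il5, a STAT5-dependent eosinophil growth factor, fell by 3.58 (SE 0.59, adjusted p = 0.0128), and Il13 fell by 1.97 (SE 0.40, adjusted p = 0.0292). Lif, a ligand of the IL-6 family, was the remaining one, at -2.15 ± 0.47 (adjusted p = 0.0386), and is named although the naming rule stopped at 4 genes a list. Il4 and Csf2 were also called in each genotype alone.

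Of 26 receptors that use JAK and STAT, 25 were tested, and over both genotypes 1 rose and 2 fell in reporter-positive cells, where 0.894% of all genes rose and 2.46% fell. Ifngr2, a chain of the interferon-γ receptor whose signal SOCS1 restrains, stood at 165, 180 and 250.5 CPM in fm_pos_Gata3flox and 187 and 294 CPM in fm_pos, against 89.3 to 97.9 CPM in fm_neg_Gata3flox and 119.8 and 141 CPM in fm_neg. All reporter-positive libraries were higher, with a log2 fold change of 0.99 ± 0.17 (adjusted p = 0.0155, edgeR). Il10ra, the ligand-binding chain of the IL-10 receptor, fell by 1.54 (SE 0.25, adjusted p = 0.0115). Osmr, a receptor chain for oncostatin M that stromal cells express, had 0 counts in fm_pos, against 474 and 606 counts in fm_neg, so it was at least 703-fold higher in fm_neg against a floor of 3 counts over the group (counting error only). In Gata3flox mice its libraries overlapped, at 0.467, 3.28 and 2.04 CPM in fm_pos_Gata3flox, against 5.26, 0.643 and 3.54 CPM in fm_neg_Gata3flox (adjusted p = 1, edgeR), and the difference between the genotypes was itself called (adjusted p = 0.0393). Its highest libraries were those with the most fibroblast transcripts, whose part was not tested.

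Comparing Gata3flox with intact mice among reporter-positive cells, 3 of the 25 receptors fell, where 0.418% of all genes fell. The fm_pos_Gata3flox libraries had 17730 to 18974 genes with a count, against 14525 and 14771 in fm_pos, and the part of this was not tested. Il6ra, the IL-6 receptor chain, stood at 20.8, 10.4 and 24.8 CPM in fm_pos_Gata3flox, against 114 and 94.8 CPM in fm_pos (log2 fold change -2.49 ± 0.33, adjusted p = 0.011, edgeR). Il9r, the IL-9 receptor chain, stood at 5.69, 12.5 and 16.2 CPM, against 73.8 and 89.2 CPM (-2.83 ± 0.42, adjusted p = 0.0149). Il7r, the IL-7 receptor chain on which ILCs depend, stood at 386 to 425 CPM, against 660 and 802 CPM (-0.84 ± 0.18, adjusted p = 0.0497). Il2 was the 1 cytokine called there, at 33.6 to 36.2 CPM in fm_pos_Gata3flox, against 72.1 and 86.6 CPM in fm_pos (-1.19 ± 0.22, adjusted p = 0.035).

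Of 16 genes known to respond to STATs, 3 rose and 2 fell in reporter-positive cells over both genotypes, where 0.894% of all genes rose and 2.46% fell. Myc, a growth regulator, stood at 67.7 to 94.0 CPM in fm_pos_Gata3flox and 70.0 and 108 CPM in fm_pos, against 211 to 268 CPM in fm_neg_Gata3flox and 504 and 548 CPM in fm_neg (log2 fold change -2.05 ± 0.16, adjusted p = 0.000389, edgeR). Irf1, an interferon-induced transcription factor, was called at -0.99 ± 0.18 over both genotypes (adjusted p = 0.0181), but the genotypes differed: it fell in intact mice (-2.25 ± 0.29, adjusted p = 0.00438) and had a log2 fold change of 0.28 ± 0.22 in Gata3flox mice (adjusted p = 0.981). Lta, a lymphotoxin, rose by 1.11 ± 0.24 (adjusted p = 0.0358), as did Bcl2, a survival factor, by 0.78 ± 0.17 (adjusted p = 0.0384). Cdkn1a, a cell cycle inhibitor, was the fifth called, at 0.41 ± 0.09 (adjusted p = 0.0389), and is named because it was among the genes called in Gata3flox mice. There it averaged 1704 ± 133 CPM in fm_pos_Gata3flox and 1014 ± 15.2 CPM in fm_neg_Gata3flox (SD, n = 3 each; log2 fold change 0.75 ± 0.11, adjusted p = 0.0313, edgeR). In intact mice it stood at 1557 and 1892 CPM in fm_pos, against 1692 and 1595 CPM in fm_neg (0.07 ± 0.14, adjusted p = 0.89). The difference between the genotypes was 0.68 ± 0.18 (adjusted p = 0.129). In reporter-negative cells, 3 of the 16 fell in fm_neg_Gata3flox relative to fm_neg, where 0.739% of all genes fell. They were Irf1 at -1.87 ± 0.25 (adjusted p = 0.0137, edgeR), Cdkn1a at -0.70 ± 0.13 (adjusted p = 0.0372) and Myc at -1.16 ± 0.22 (adjusted p = 0.0421). The fm_neg libraries held the most fibroblast, keratinocyte and immediate early transcripts of the fate-map libraries. The part of those transcripts in these falls, and in the fall of Irf1 in intact mice, was not tested. None of the 4 JAK kinases, 2 other STATs, 4 other SOCS genes, 2 other Pim kinases or 10 other inhibitors tested was called in any of the 7 comparisons by edgeR.

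Among 7953 genes with a mean of at least 10 CPM, likeness to each gene was measured as the root mean square difference of standardised log2 CPM over the 10 fate-map libraries. Nearest to Socs2 were Otulinl at 0.19, Csf2 at 0.22 and Cd200r1 at 0.25. Nearest to Socs1 were S1pr1 at 0.29, Ethe1 at 0.30 and Sla at 0.34, and nearest to Socs3 were Clic4 at 0.23, Aldh2 at 0.23 and Irf1 at 0.34.

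In single cells, levels were summed over 4103 skin cells, 443 dorsal skin cells at day 10 and 553 at day 0, with 10239594, 862679 and 1171266 counts in all. Pim1 was the highest of the 10 genes in the skin library and at day 10, at 3074 CPM in skin, 1687 CPM at day 10 and 1213 CPM at day 0, where Stat3 was above it at 1384 CPM. Such CPM values are not divided by length, unlike the RPKM of the bulk libraries. Cish was found in 56.7% of skin cells, 51.9% of day 10 cells and 47.4% of day 0 cells, at median depths of 2358, 1811 and 1984 counts per cell. Socs3 was found in 6.48%, 5.19% and 5.61% of them. The skin library and day 0 shared 4 cell barcodes, and no other pair shared any.

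Between the days there was 1 library each, so no test was possible. Socs2 was the 1 of 10 genes past 1.5-fold, against 14.4% of 5195 genes compared (6.31% higher). It had 78 counts at day 10, against 40 at day 0, or 90.4 CPM against 34.2 CPM, a ratio of 2.65 (95% counting interval 1.79 to 3.98). Stat3 stood at 949 CPM at day 10, against 1384 CPM at day 0, a ratio of 0.69 (0.63 to 0.75). Pim1 stood at 1687 CPM at day 10, against 1213 CPM at day 0, a ratio of 1.39 (1.29 to 1.497). The intervals of the other 7 genes included 1. The 8 ILC2 markers summed to 2394 CPM at day 10, against 1277 CPM at day 0, and the 8 ILC3 markers to 478 CPM at day 10, against 566 CPM at day 0; their part in the Socs2 difference was not tested. Thinned to 1000 counts per cell, the Socs2 ratio was 2.32 (1.29 to 4.29) and that of Stat3 0.65 (0.57 to 0.74).

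The cells of both days fell into 3 clusters, made without the 10 genes and without the pathway lists, and no cluster had 3 markers of a cell type among its leading genes, so they are called by number. Cluster 0, led by Penk, Il1r2 and Il1rl1, held 56.0% of day 10 cells and 28.0% of day 0 cells. Cluster 1, led by Mast4, Usp2 and Cxxc5, held 25.3% of day 10 cells and 54.2% of day 0 cells. Cluster 2, led by Nfkbid, Egr1 and Zfp36, held 18.7% and 17.7%, and its immediate early and stress genes summed to 15000 CPM, against 3912 and 4445 CPM in clusters 0 and 1.

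Within cluster 0, Socs2 stood at 125.5 CPM at day 10 (interval 96.7 to 160.3), against 34.2 CPM at day 0 (18.2 to 58.5). Within cluster 1 it stood at 52.6 CPM at day 10 (26.3 to 94.1), against 34.9 CPM at day 0 (21.8 to 52.8), where the intervals overlap. Within cluster 2 it stood lower at day 10, at 20.9 CPM against 31.3 CPM at day 0, on 3 and 5 counts with overlapping intervals. Stat3 was lower at day 10 in clusters 0 and 1, at 1022 and 1124 CPM against 1428 and 1597 CPM at day 0, and in cluster 2 it stood at 438.5 CPM at day 10, against 438 CPM at day 0. Pim1 was higher at day 10 in clusters 0 and 1, at 1657 and 1353 CPM against 1068 and 951 CPM at day 0, and in cluster 2 it stood at 2276 CPM, against 2595 CPM at day 0.

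In the clusters with high immediate early and stress transcripts, Socs1, Cish and Pim1 had their highest values and Stat3, Stat4, Stat5a, Stat5b and Stat6 their lowest by point value among clusters of at least 50 cells. Socs2 had no common direction there, at 26.4 CPM in dorsal cluster 2, the lowest of the 3, and 263 CPM in skin cluster 6, above the 168 CPM of skin cluster 3. In dorsal cluster 2, Socs1 stood at 211 CPM (interval 162 to 269), against 51.7 CPM in cluster 0 and 95.2 CPM in cluster 1, while Stat3 stood at 438 CPM, against 1195 and 1479 CPM. Pim1 stood at 2444 CPM, against 1406 CPM in cluster 0 and 1051 CPM in cluster 1. For Cish, Stat4, Stat5a, Stat5b and Stat6 the intervals of dorsal cluster 2 overlapped those of cluster 1, for example 442 to 608 CPM against 386 to 476 CPM for Cish. Stat5b stood at 49.4 CPM in dorsal cluster 2 (27.65 to 81.49), against 71.9 CPM in cluster 0 and 61.9 CPM in cluster 1, and its interval overlapped both. The skin library, with 5 clusters of at least 50 cells, held 1 with like leading genes, number 6 with 1533 of 4103 cells, led by Hspa1a, Tnfsf9 and Nfkbid, with 22040 CPM of immediate early and stress genes against 6682 CPM in cluster 3, the largest. There, Socs1 stood at 226 CPM, against 115 CPM in cluster 3, Cish at 656 against 364 CPM and Pim1 at 4480 against 2251 CPM. The STATs stood lower in skin cluster 6 than in cluster 3: Stat3 at 265 against 871 CPM, Stat4 at 24.4 against 86.8 CPM, Stat5a at 35.8 against 103 CPM and Stat6 at 87.0 against 158 CPM. Stat5b stood at 24.4 CPM in skin cluster 6, against 31.6 CPM in cluster 3, with overlapping intervals (19.1 to 30.7 and 27.1 to 36.6). Cells of cluster 6 had a median of 1873 counts, against 2699 in cluster 3, and the part of handling or depth in these differences was not tested. The cells of these clusters come from 1 library in skin, so the intervals cover counting error only.

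**Figure D4:**
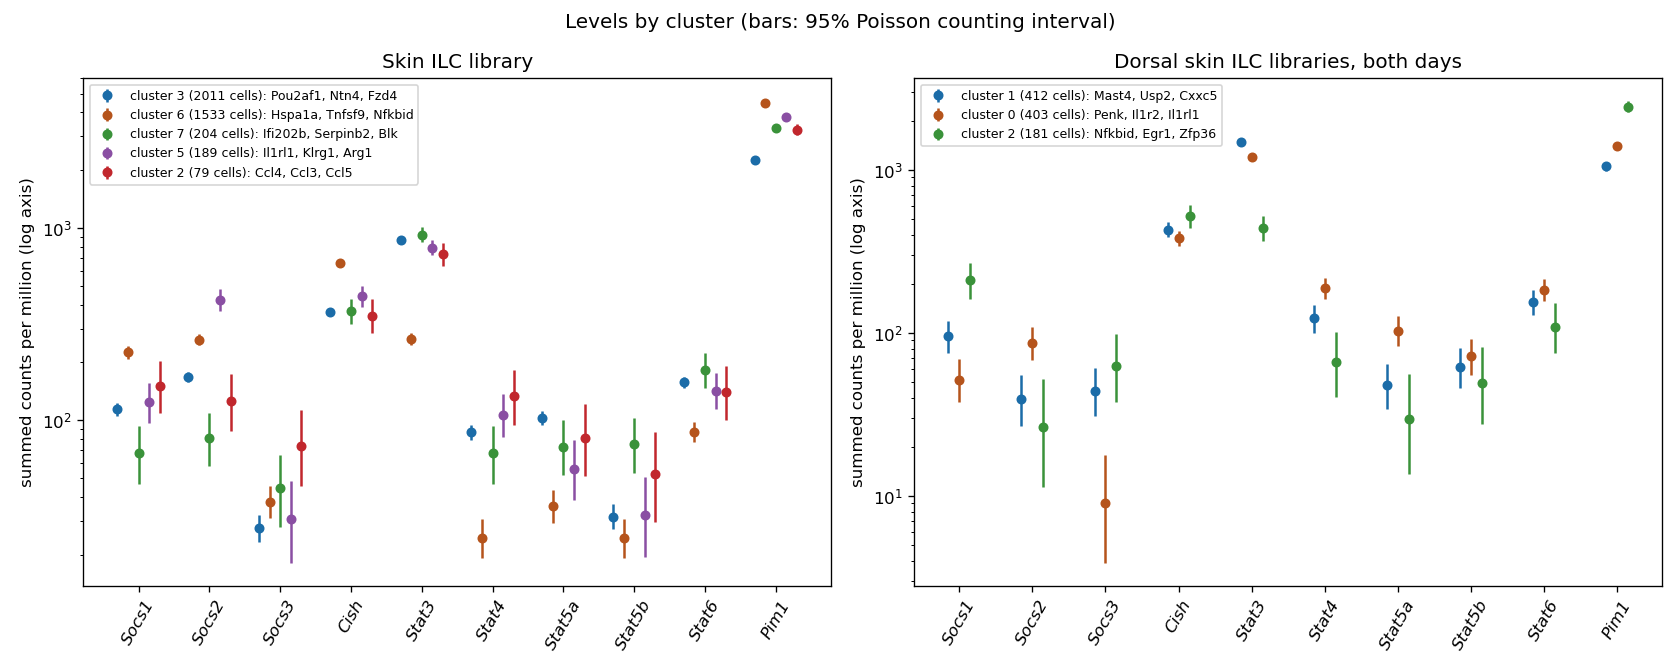
Summed CPM (log axis) of the 10 genes in each cluster of at least 50 cells, in the skin library (left) and in both dorsal skin libraries together (right), with 95% Poisson counting intervals. Skin cluster 6 and dorsal cluster 2 have the highest Socs1, Cish and Pim1 and the lowest Stat3, Stat4, Stat5a and Stat6 of their panels by point value, with intervals that overlap dorsal cluster 1 for Cish, Stat4, Stat5a and Stat6.

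Other skin clusters of at least 50 cells differed in single members, ranked here among those 5 clusters. Cluster 5, ILC2-like with 189 cells and 4 ILC2 markers among its 10 leading genes (Il1rl1, Klrg1 and Arg1 lead it), had the highest Socs2, at 424 CPM (interval 373 to 480), against 168 CPM in cluster 3. Cluster 2, ILC1- and NK-like with 79 cells, led by Ccl4, Ccl3 and Ccl5, had the highest Stat4, at 133 CPM (94.4 to 183), and Socs3, at 73.7 CPM (45.6 to 113), though the intervals overlapped those of cluster 5 for Stat4 (82.3 to 137) and of cluster 7 for Socs3 (28.0 to 66.4). Cluster 2 was mixed, with Mki67 among its leading genes and a cell cycle list of 1334 CPM, against 102 CPM in cluster 3. Its ILC3 list summed to 1288 CPM against 368 CPM, and its T cell list to 1548 CPM against 794 CPM. The part of these cells in its Stat4 and Socs3 was not tested. Cluster 7, led by Ifi202b, Serpinb2 and Blk, had the highest Stat3, at 925 CPM, beside cluster 3 at 871 CPM, whose intervals overlap (844 to 1012 and 847 to 896). It also had the highest Stat5b, at 75.01 CPM (53.3 to 102.5), and the lowest Socs2, at 80.8 CPM (58.2 to 109), both with intervals that overlapped those of cluster 2. Cd3e was among its leading genes, and its T cell list summed to 3341 CPM, against 794 CPM in cluster 3, so it was left unnamed. Among the 4 clusters of under 50 cells, Stat3 reached 3011 CPM (2591 to 3479) in the 17 cells of cluster 4, led by Tff1, and Socs3 138 CPM (55.5 to 285) on 7 counts in the 12 cells of cluster 0, led by Lyz2.

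The dorsal libraries list a tdTomato transcript, found in 28 of 443 cells at day 10 and 113 of 553 at day 0. Its relation to the reporter is not stated in the labels, and cells without a count may still carry it. At day 0 Socs1 stood at 157 CPM in cells with a tdTomato count, against 77.5 CPM in cells without (42 and 70 counts), a ratio of 2.03 (1.35 to 3.01). At day 10 it stood at 64.6 CPM against 92.4 CPM (4 and 74 counts), a ratio of 0.70 (0.19 to 1.87). Socs2 had ratios of 0.52 (0.10 to 1.57) at day 10 and 0.48 (0.15 to 1.24) at day 0, resting on 3 and 5 counts in cells with tdTomato. Stat3 had a ratio of 1.21 at both days, with an interval of 1.08 to 1.36 at day 0 and 0.93 to 1.55 at day 10, and Stat6 had 2.05 (1.19 to 3.34) at day 10 and 0.95 (0.65 to 1.35) at day 0. Cells with a tdTomato count were deeper, with median counts of 2020 against 1786 at day 10 and 2321 against 1896 at day 0.

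**Figure D5:**
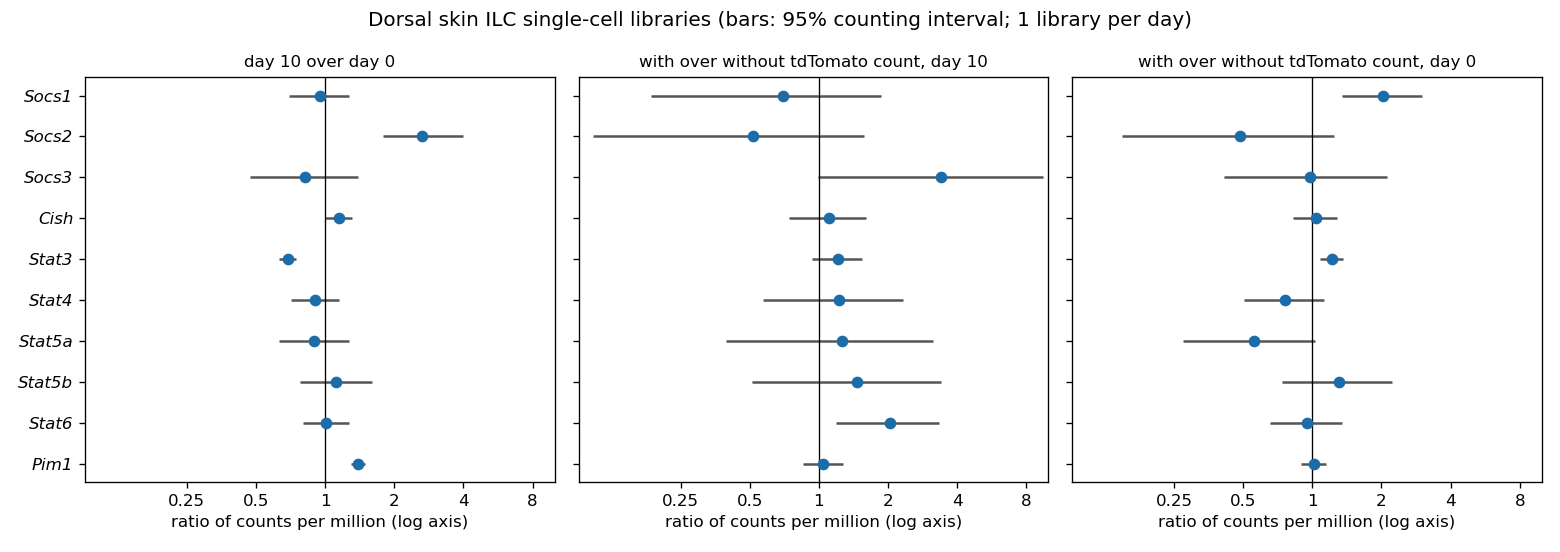
Ratios of CPM (log axis, bars: 95% counting intervals) of the 10 genes: day 10 over day 0 (left), and cells with over cells without a tdTomato count at day 10 (middle) and day 0 (right). Socs2 has a ratio of 2.65 between the days, and Socs1 a ratio of 2.03 by tdTomato at day 0.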

How the data were processed

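Per the submitters' processing notes, HISAT2 2.1.0, featureCounts and Subread were used and the build was mm10. The deposited bulk files hold raw counts per gene with exon positions, and the single-cell files raw counts per gene and cell. The strand setting, the single-cell platform and cell calling are not given in the sources used here. The gene that drives the fate-map reporter is not reported here.

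The 10 genes and the pathway and marker lists were chosen with earlier results of these data known. The 10 genes are always named, and from each pathway list up to 4 called genes per comparison, smallest p first, with Lif added after its values were seen. Il6 is outside this rule and is described although it was not called over both genotypes. A gene named by the rule may be described in other comparisons too. Bulk counts were fitted with edgeR 4.0.16 in R 4.3.3 (filterByExpr, TMM, quasi-likelihood test), in 1 model over the 10 fate-map libraries (17456 genes tested) and another over the 4 tamoxifen libraries (13272 genes). A gene was called at a Benjamini-Hochberg adjusted p under 0.05 over all genes tested. CPM use TMM factors except in list sums, and RPKM divide by exon length. The steps were tested on simulated data. DESeq2 1.42.0, other filters and scaling, a lane term, a replicate block and left-out libraries were the alternatives.

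Single cells were analysed with scanpy 1.11.5. Filters kept cells with at least 200 genes and at most 10% of counts from mitochondrial genes (338 skin cells failed), and removed predicted doublets (3 in skin and 11 in each dorsal library, so the caller marked almost none in skin). The dorsal files list 0 mitochondrial genes. Clusters came from 2000 variable genes, 30 components, 15 neighbours and Leiden resolution 0.5, without the 10 genes, the pathway lists and tdTomato. A cluster was named from at least 3 markers of a cell type among its 10 leading genes. Sums carry 95% Poisson intervals, their ratios 95% exact conditional binomial intervals, and ratios between days needed at least 50 counts over both days. Depth ranged from 14450612 to 44098274 counts per bulk library.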

Additional observations from a re-analysis of the deposited data

Results flagged for a closer look

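For none of the 10 genes did the reporter difference vary by genotype past the threshold, but it did for 2 genes of the pathway lists, by edgeR's test of the interaction between reporter and Gata3flox. Irf1 stood at 146, 195 and 240.2 CPM in fm_pos_Gata3flox, against 178, 156 and 144 CPM in fm_neg_Gata3flox, and at 95.8 and 149.8 CPM in fm_pos, against 634 and 535 CPM in fm_neg. The log2 difference of its fold changes, Gata3flox minus intact, was 2.53 ± 0.36 (adjusted p = 0.014). For Osmr the fitted difference was 11.98 ± 2.08 (adjusted p = 0.0393), a size that depends on the prior count, because fm_pos had 0 counts. Osmr was at least 46.0-fold higher in fm_pos_Gata3flox than in fm_pos, against a floor of 3 counts over the group, with 11 to 91 counts in the fm_pos_Gata3flox libraries. For both genes the fm_neg libraries, which hold the most fibroblast and keratinocyte transcripts, were the highest of the fate-map libraries, and the part of those transcripts was not tested.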

How the results depend on the processing

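No fold change of the 10 genes with an unadjusted p under 0.05 turned its direction under any alternative run. The number of the 10 called by edgeR was 0 in intact mice. It became 2 by DESeq2, 2 with no filter on low counts (1324 of all 27320 genes) and 1 at a mean CPM of at least 5 (444 of 9955). In Gata3flox mice it was 1 and became 2 by DESeq2 and 2 with no filter (321 of all 27320 genes). With only the libraries compared it was 2 (233 of 14846), and with lane as a covariate 0 (10 of 17456). The alternative without both fm_neg libraries was chosen after seeing the data. It set both reporter-positive groups against fm_neg_Gata3flox alone, so it is not the same comparison. Over both genotypes the number called was 2 and became 1 with the lane term (170 of all 17456 genes) and 1 with that alternative (466 of 17083). Among reporter-positive cells it was 0 and became 1 by DESeq2. Among reporter-negative cells it was 1 and became 0 with the lane term (77 of all 17456 genes). For the interaction it was 0 and became 1 by DESeq2 and 1 with no filter (773 of all 27320 genes). Of all genes, DESeq2 called 2208 in intact mice, 424 in Gata3flox mice and 1868 over both, against 478, 63 and 585 by edgeR. It called 1898 among reporter-positive cells, 1565 among reporter-negative cells, 1158 for the interaction and 196 for tamoxifen, against 266, 233, 176 and 0 by edgeR.

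Leaving out 1 Gata3flox library gave 0 of the 10 genes called in Gata3flox mice, where 2 to 27 of all genes were called. It gave 1 over both genotypes (307 to 429 of all genes) and 0 to 1 among reporter-positive cells (66 to 283). Among reporter-negative cells it gave 0 (5 to 18 of all genes), and for the interaction 0 (54 to 89). Leaving out 1 library of the other groups left 1 in that group, and those counts are not given here. Where a group was left with 1 library, it was assumed to vary like the others. Same-numbered Gata3flox libraries deviated with correlations of 0.241, 0.038 and 0.097, not all over 0.1, so the numbers were not taken as pairs. With a replicate block, 1 of the 10 genes was called over both genotypes (Socs2, adjusted p = 0.0489, edgeR), against 263 of all genes. In Gata3flox mice 0 were called (31 of all genes), and among reporter-negative cells 0 (83). The block changed no other count of the 10 genes. Fitting only the libraries compared was not run for both genotypes together or for the interaction, which use all 10 libraries. Between days, 3 of 9 genes were past the fold after thinning to 1000 counts per cell, against 441 of all 3181 genes compared. They were Socs1 (1.53), Socs2 (2.32) and Stat3 (0.65), of which Socs1 has an interval that includes 1. The causes were not tested.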
